A study of Homo sapiens with 6 samples.

Results

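The 10 epithelial keratins described here are KRT5, KRT7, KRT8, KRT17, KRT18, KRT19, KRT23, KRT80, KRT81 and KRT86, found by gene name among the 62703 genes listed in the RNA-seq table. PANC-1 is an established human cell line from a pancreatic ductal adenocarcinoma, and the study asked what the DKK1-SE super-enhancer, an enhancer cluster on the same chromosome as DKK1, controls in it. The 3 DKK1-SE+/+ libraries came from PANC-1 cells that keep this enhancer. For the 3 DKK1-SE-/- libraries, its component enhancer e1 had been deleted from both alleles by CRISPR/Cas9 editing. Both groups shared the line, the serum-supplemented DMEM medium with antibiotics and growth in the logarithmic phase. The DKK1-SE-/- cells trace back to a lone homozygous clone, so the deletion and the clone cannot be told apart. The labels call the libraries of a group biological replicates and the methods speak of independent repeats in general, but neither says that these libraries came from separate cultures. The p-values therefore measure only the spread between these libraries, which may be technical.

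Keratins are the intermediate filament proteins of epithelial cells, and each filament is built from pairs of a type I and a type II chain. Simple, single-layered epithelia such as the pancreatic duct carry KRT8 (type II) with KRT18 (type I), joined by KRT7 (type II) and KRT19 (type I). Basal cells of layered epithelia use KRT5 (type II) and KRT17 (type I), whereas KRT81 and KRT86 are type II keratins of the hair shaft. KRT80 (type II) and KRT23 (type I) belong to neither set and were kept as a class of their own.

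The libraries held 21822314, 16475810 and 18803154 expected counts in DKK1-SE+/+ cells and 17359835, 20098086 and 17804764 in DKK1-SE-/- cells, for replicates 1 to 3 in each. Levels are given as TPM, a unit in which each count is divided by transcript length and every library has the same total, so that genes can be set side by side. DKK1, which encodes a secreted Wnt inhibitor, stood at 229, 246 and 199 TPM in DKK1-SE+/+ libraries and at 66.8, 79.8 and 82.7 TPM in DKK1-SE-/- libraries. All 3 DKK1-SE-/- libraries lay below all 3 DKK1-SE+/+ libraries. The deleted enhancer is not part of the DKK1 mRNA, so the labels are checked here through the level of DKK1 and not through the deletion itself. The log2 fold change of DKK1 was -1.45 (SE 0.11, adjusted p = 6.16e-06, edgeR quasi-likelihood test with Benjamini-Hochberg adjustment over 15179 tested genes).

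The ductal label held only in part outside the keratins. The ductal markers abundant enough to be tested numbered 5, and the most abundant was the tight junction gene CLDN4 at 127 ± 6.19 TPM (SD, n = 3) in DKK1-SE+/+ and 78.0 ± 8.34 TPM in DKK1-SE-/- cells. CLDN4, SOX9 and EPCAM fell and MUC1 rose (of 15 alternatives 10 lost the EPCAM call, with adjusted p up to 0.123, and 4 lost the SOX9 call, up to 0.105), against 19.8% of all tested genes that rose and 19.5% that fell, while the E-cadherin gene CDH1 was low at 1.59 ± 0.459 and 1.35 ± 1.17 TPM. The chloride channel gene CFTR did not exceed 0.23 TPM in any library. Acinar markers summed to at most 0.37 TPM and endocrine markers to at most 0.33 TPM, and neither list had a tested gene. Markers of other cell types were not all near 0. The leukocyte marker PTPRC did not exceed 0.04 TPM, but CD68 of the same list was at 43.5 ± 2.81 TPM in DKK1-SE+/+ and 66.6 ± 1.61 TPM in DKK1-SE-/- cells. The endothelial marker PECAM1 did not exceed 0.01 TPM, while KDR was at 2.35 ± 0.238 and 0.423 ± 0.114 TPM, and the fibroblast marker COL1A1 was at 98.7 ± 6.72 and 12.3 ± 3.61 TPM.

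In DKK1-SE-/- cells KRT8, KRT18 and KRT19 of simple epithelia were higher, KRT80, the basal KRT17 and the hair-type KRT81 were lower, and KRT7 and KRT86 were not called. KRT19 rose most among the 10 and KRT17 and KRT80 fell most. Of the 10 genes 8 passed the filter on low counts and 6 of these were called at an adjusted p under 0.05, against 39.3% of all tested genes. KRT17 passed through the DKK1-SE+/+ libraries alone, where it was high, so its place in these counts depends on that difference. KRT8, KRT18 and KRT19 made up the 3 that rose (19.8% of tested genes rose), and KRT17, KRT80 and KRT81 the 3 that fell (19.5% fell). The TPM ranges of the groups stayed apart for 7 of the 8, against 44.2% of tested genes. With an unadjusted p under 0.05 and a log2 fold change of at least 1.2 in either direction, 3 of the 8 passed, against 8.66% of tested genes. These were KRT19 upward (4.96% of tested genes) and KRT17 and KRT80 downward (3.7%). The study's methods set 1.2 as a limit on the fold change itself, and at that lower limit with the same p, an alternative chosen after seeing the data, 7 of the 8 passed against 47.6% of tested genes, KRT86 being the exception. The genes were picked with results of these data known, so the counts describe the 10 genes and test nothing about the family.

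KRT8, the type II partner of the simple-epithelial filament, was the most abundant keratin. It stood at 936, 948 and 988 TPM in the DKK1-SE+/+ libraries and at 1649, 1668 and 1362 TPM in the DKK1-SE-/- libraries. The groups did not overlap, and replicate 3 was the lowest of the DKK1-SE-/- libraries. On the log2 scale KRT8 was higher by 0.86 (SE 0.13, 1.81-fold, adjusted p = 0.000518, edgeR). Ranked by mean TPM over all listed genes, KRT8 moved from place 129 to place 67. In bulk RNA of this kind, a change in the number of cells that express a keratin and a change in RNA per cell cannot be told apart.

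KRT18, the type I partner of KRT8, showed the same pattern at a similar level. Its TPM was 842, 867 and 859.6 in DKK1-SE+/+ and 1279.5, 1228 and 1133 in DKK1-SE-/- cells. Each DKK1-SE-/- library exceeded every DKK1-SE+/+ library, and replicate 3 was again the lowest of them. The log2 fold change was 0.67 (SE 0.11, 1.59-fold, adjusted p = 0.000987, edgeR). KRT18 moved from place 140 to place 91 in the ranking by mean TPM. The ratio of KRT8 to KRT18 TPM was 1.12 ± 0.0286 in DKK1-SE+/+ and 1.28 ± 0.0785 in DKK1-SE-/- cells (SD, n = 3), and the 2 groups of ratios did not overlap.

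KRT19, a type I keratin that marks the ductal lineage in the pancreas, changed more than the KRT8 and KRT18 pair. Its values were 48.2, 53.8 and 59.8 TPM in DKK1-SE+/+ libraries and 198, 172 and 146 TPM in DKK1-SE-/- libraries. The lowest DKK1-SE-/- value was well above the highest DKK1-SE+/+ value, and the spread was wider among the DKK1-SE-/- libraries. KRT19 rose by 1.83 on the log2 scale (SE 0.16, 95% interval 1.48 to 2.18), a 3.55-fold difference with an adjusted p of 1.4e-05 in edgeR. Its place in the ranking went from 2286 to 656. Relative to KRT18, KRT19 went from 0.0629 ± 0.0062 to 0.141 ± 0.0129 in TPM ratio (SD, n = 3), with no overlap between groups.

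KRT7, the fourth keratin of simple epithelia, was far less abundant than the other 3 and did not pass the test. Its TPM was 14.8, 13.6 and 11.7 in DKK1-SE+/+ and 18.6, 17.7 and 15.2 in DKK1-SE-/- libraries. These TPM ranges lay apart by a narrow margin, but on counts scaled by library size the groups overlapped. The log2 difference was 0.47 (SE 0.20, 95% interval 0.040 to 0.91, adjusted p = 0.0785, edgeR). Without replicate 3 of the DKK1-SE-/- cells it was 0.61 and passed with an adjusted p of 0.0134, and over all alternatives the adjusted p ranged from 0.0134 to 0.547. The counts behind KRT7, from 92.8 to 174, correspond to a length of 0.686 to 0.775 kb where the table lists 1625 bases, taking the typical gene as having its listed length. The TPM of KRT7 thus rests on a shorter length than the listed one, which makes its level beside KRT8, KRT18 and KRT19 uncertain.

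**Figure D1:**
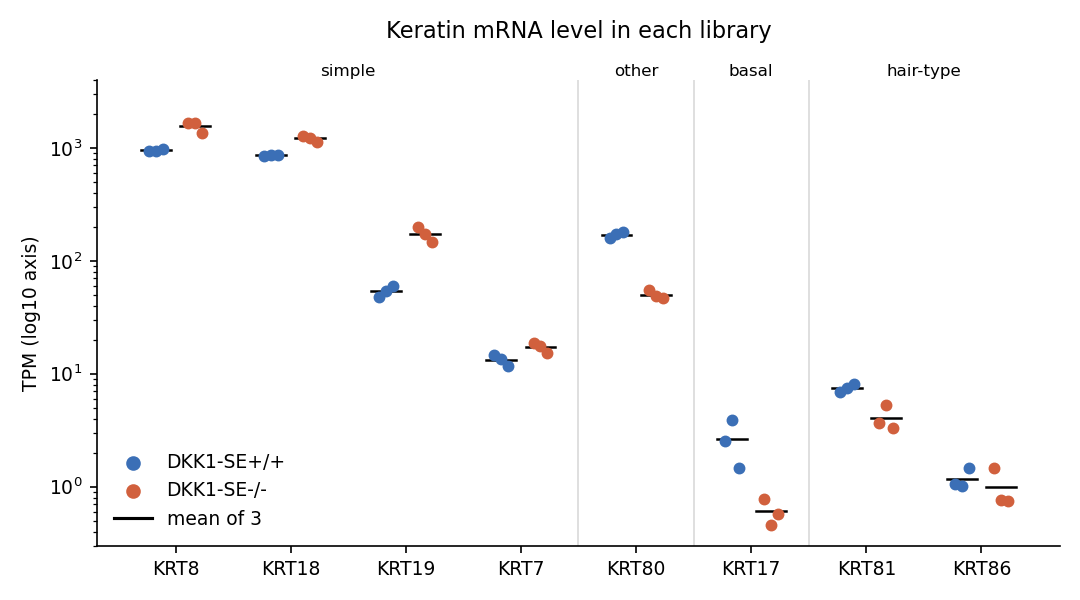
TPM of the 8 tested keratins in each of the 6 libraries, on a log10 axis, with DKK1-SE+/+ libraries in blue, DKK1-SE-/- libraries in orange and a bar at the mean of 3. KRT8, KRT18, KRT19 and KRT7 sit higher in DKK1-SE-/- cells (KRT7 did not pass the test), KRT80, KRT17 and KRT81 sit lower, and KRT86 overlaps between the groups.

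KRT80, a type II keratin found in many epithelia near desmosomes, went the other way. It was at 160.1, 174 and 179 TPM in DKK1-SE+/+ and at 55.3, 48.5 and 46.9 TPM in DKK1-SE-/- libraries. Every DKK1-SE-/- library lay below the lowest DKK1-SE+/+ library, and the libraries of a group were close to each other. The log2 fold change was -1.61 (SE 0.12, 95% interval -1.88 to -1.34), which is 3.05-fold lower with an adjusted p of 5.62e-06 in edgeR. Between the groups KRT80 and KRT19 exchanged their order: KRT80 exceeded KRT19 in TPM by a ratio of 3.18 ± 0.167 in DKK1-SE+/+ cells and stood at 0.294 ± 0.0236 of it in DKK1-SE-/- cells (SD, n = 3). In the ranking by mean TPM, KRT80 dropped from place 695 to place 2273. KRT23, the type I keratin placed beside it, had expected counts of 2, 0 and 0 in DKK1-SE+/+ and 0, 1 and 0 in DKK1-SE-/- libraries, so a difference was not detectable at this depth.

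The basal members KRT5 and KRT17 were almost absent. KRT5, the type II chain of basal cells, had a count of 1 in replicate 3 of each group and 0 in the other 4 libraries, below what could be tested. KRT17, a type I chain of basal and activated epithelial cells, had expected counts of 28, 21 and 28 in DKK1-SE+/+ and 5, 8 and 8 in DKK1-SE-/- libraries. The DKK1-SE-/- counts were all lower, also after scaling by library size. KRT17 changed by -1.74 on the log2 scale (SE 0.38, 95% interval -2.57 to -0.92), 3.35-fold lower with an adjusted p of 0.00421 in edgeR. Its TPM was 2.54, 3.86 and 1.46 against 0.78, 0.46 and 0.57, which also left the groups apart. The DKK1-SE+/+ TPM varied more than the counts did, because the length implied by count and TPM ran from 0.563 to 1.75 kb between libraries. KRT17 met the filter, which asks for a count of about 10, through the DKK1-SE+/+ libraries alone, and without the filter its adjusted p was 0.00295. With so few counts the size of the KRT17 change is known only within its wide interval.

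The hair-type keratins KRT81 and KRT86 are described together because their genes are near copies. Over the coding sequence of the GENCODE 44 transcripts, 1372 of 1522 aligned positions were identical (90.1%), including an unbroken stretch of 605 bases. Of all 50-base words in the KRT81 transcript 44.6% also occurred in another gene, KRT86 above all (38.4%), and 44.8% of those of KRT86 were shared as well. A read lying wholly within such shared sequence cannot be placed on either gene by its sequence. How the counts were split between KRT81 and KRT86 is therefore uncertain. The KRT81 gene also lies wholly inside the KRT86 gene, on the opposite strand.

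KRT81 was at 6.83, 7.49 and 8.18 TPM in DKK1-SE+/+ and at 3.63, 5.27 and 3.32 TPM in DKK1-SE-/- libraries. All of the DKK1-SE-/- values were lower, and replicate 2 came closest to the other group. KRT81 changed by -0.70 on the log2 scale (SE 0.21, 1.63-fold lower, adjusted p = 0.0207, edgeR). The call was lost without replicate 2 (adjusted p = 0.0549) or replicate 3 (0.0656) of the DKK1-SE+/+ cells, and the adjusted p ranged from 0.000706 to 0.0656 over all alternatives. With the counts of KRT86 and its further relative KRT83 added, the change was -0.56 with an adjusted p of 0.0398 in edgeR.

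KRT86 itself was at 1.06, 1.01 and 1.47 TPM in DKK1-SE+/+ and at 1.45, 0.76 and 0.75 TPM in DKK1-SE-/- libraries. The groups overlapped, with replicate 1 of the DKK1-SE-/- cells among the high values. The log2 difference of -0.12 (SE 0.37, 95% interval -0.92 to 0.69, adjusted p = 0.825, edgeR) leaves a decrease like that of KRT81 within its interval. Its sign changed when replicate 3 of DKK1-SE+/+ (0.043) or replicate 2 (0.033) or 3 (0.075) of DKK1-SE-/- was left out, and without replicate 1 of DKK1-SE-/- it was -0.57 (adjusted p = 0.252).

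**Figure D2:**
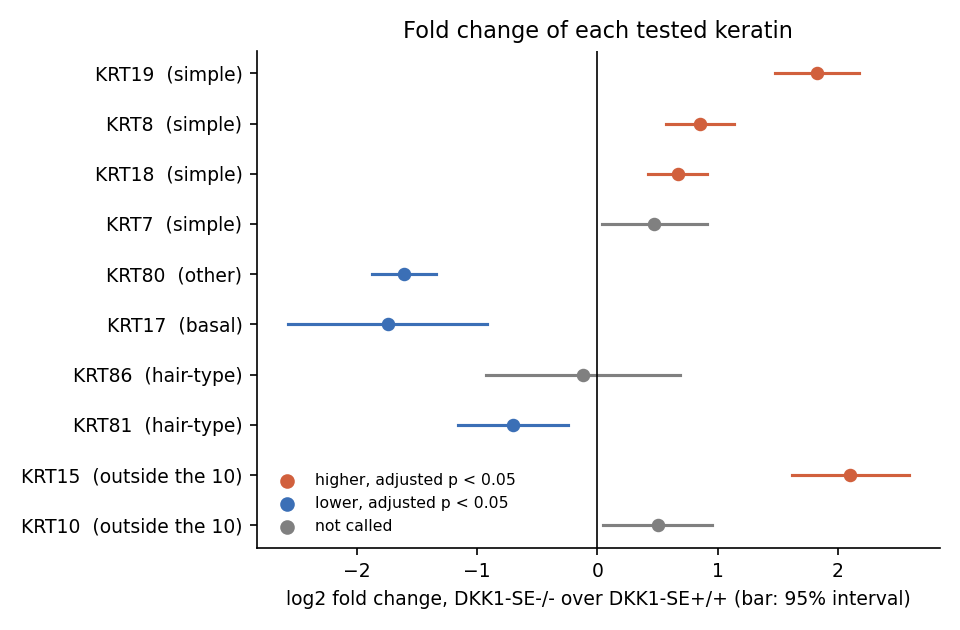
Log2 fold change of the 8 tested keratins, with KRT15 and KRT10 from outside the 10, as DKK1-SE-/- over DKK1-SE+/+, with bars for the 95% interval. KRT19, KRT8, KRT18 and KRT15 were called higher (orange), KRT80, KRT17 and KRT81 lower (blue), and KRT7, KRT86 and KRT10 were not called (grey). KRT75 is left out because its DKK1-SE-/- counts were 1 or 2.

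The make-up of the keratin pool shifted toward the simple class. Summed over the 10 genes the libraries held 2011, 2069 and 2109 TPM in DKK1-SE+/+ and 3206, 3141 and 2708 TPM in DKK1-SE-/- cells, 1.46 times as much by the means. KRT7, KRT8, KRT18 and KRT19 together accounted for 91.5, 91.0 and 91.0% of that sum in DKK1-SE+/+ libraries and for 98.1, 98.2 and 98.1% in DKK1-SE-/- libraries. All shares of the second group were above those of the first, with little spread within a group. Within the simple class KRT7 did not keep pace with KRT8. The ratio of KRT7 to KRT8 TPM was 0.0140 ± 0.00202 in DKK1-SE+/+ and 0.0110 ± 0.000354 in DKK1-SE-/- cells (SD, n = 3), without overlap. KRT80, with the near-absent KRT23, went from 8.28 ± 0.277% to 1.67 ± 0.107% (SD, n = 3). The hair-type pair went from 0.42 ± 0.0336% to 0.167 ± 0.0221%, and the basal pair KRT5 and KRT17 from 0.128 ± 0.058% to 0.0223 ± 0.00693%. The fall of the basal share holds for this pair only, since the basal keratin KRT15, outside the 10, rose and is not in the sum. The hair-type share likewise covers KRT81 and KRT86 only. Outside the sum, KRT75 of the hair follicle fell, while KRT32, below the filter, had higher counts in DKK1-SE-/- libraries. The basal and hair-type members were a trace in both groups, and most of the change in shares was that of KRT80. On CPM, counts scaled to library size and not divided by length, the simple share was 79.9% and 95.4%, because the transcript of KRT80 is longer than the others.

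The balance between filament partners changed less than the total. The type II members summed to 1149.95 ± 35.3 TPM in DKK1-SE+/+ and 1632 ± 176 TPM in DKK1-SE-/- cells, and the type I members to 913 ± 17.4 and 1386 ± 99.9 TPM. Their ratio was 1.25, 1.24 and 1.29 in DKK1-SE+/+ and 1.17, 1.24 and 1.12 in DKK1-SE-/- libraries. These ratios overlapped between the groups, with KRT8 higher and KRT80 lower on the type II side and KRT18 and KRT19 higher on the type I side.

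**Figure D3:**
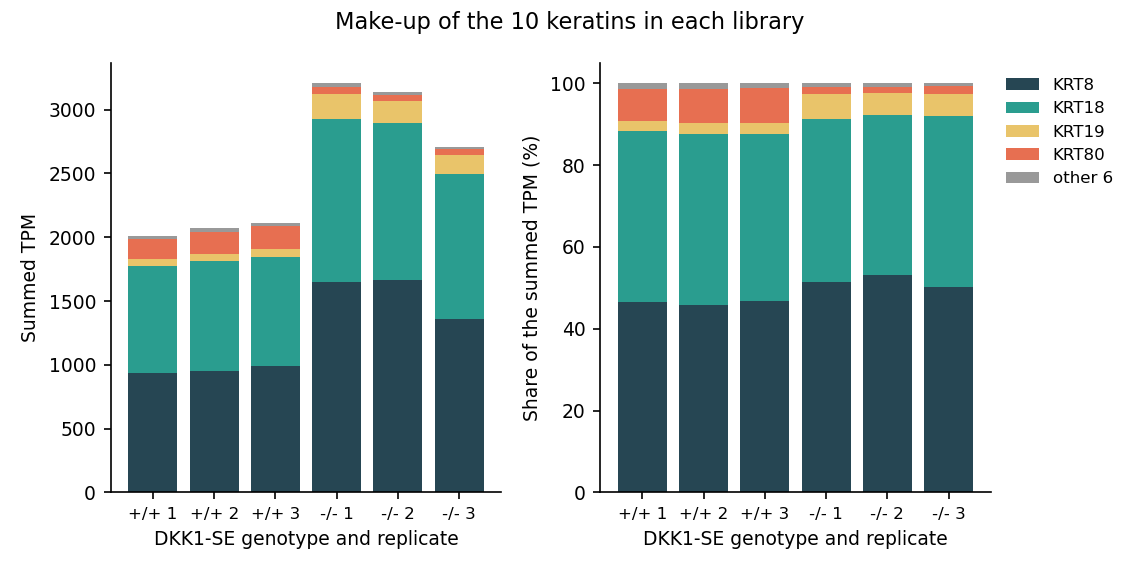
Summed TPM of the 10 keratins in each library (left) and the share of each gene in that sum (right), with the 6 less abundant members joined as one grey segment. KRT8 and KRT18 fill most of every bar, the KRT19 segment is wider in DKK1-SE-/- libraries and the KRT80 segment is narrower.

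The keratin transcripts are rich in G and C, and their fold changes depended in size on how this was treated. Their GC content ran from 50.7% (KRT23) to 62.3% (KRT81), against a median of 48.2% over tested genes. With an offset for GC content in each library, the log2 fold change was 0.58 for KRT8, 0.40 for KRT18, 1.49 for KRT19 and 0.13 for KRT7. The same offset gave -1.85 for KRT80, -1.96 for KRT17, -1.03 for KRT81 and -0.43 for KRT86 (adjusted p = 0.317). All 6 calls held under the offset, while the values of KRT18 and KRT7 shrank most in proportion and that of KRT86, still not called, grew most. Of the genes named further on, the rises of PLEC (0.49), SNAI1 (0.35), JUP (0.59) and CD68 (0.49) and the fall of ITGA6 (-0.27) also became much smaller under the offset, without loss of the call. With replicate numbers as a block beside the offset, the SNAI1 call was lost (adjusted p = 0.058, edgeR), while the others kept theirs.

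Copies and overlapping genes bear on some members more than on others. KRT19 and KRT80 shared 1.79% and 0.418% of their 50-base words with another gene, so their values are little affected by read sharing. KRT8 shared 39.2%, most often with its pseudogene KRT8P3 (22.8%), and KRT18 shared 52.8%, most often with KRT8 (23.9%). The genes of KRT8 and KRT18 overlap by 1084 bases on opposite strands. The 51 rows named as KRT8 pseudogenes held between 0.468 and 0.754% of the KRT8 count in a library, and the 67 KRT18 pseudogene rows between 0.113 and 0.299% of the KRT18 count. Adding these counts to the parent genes left the log2 fold changes at 0.85 for KRT8 and 0.67 for KRT18. KRT7 shared 11.7% of its words, nearly all with the antisense gene KRT7-AS, and KRT17 shared 18.3%. The libraries were made with a stranded kit, but whether the counting used the strand is not given in the sources used here.

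Apart from KRT18, which sits with the type II genes, the members lie in 2 clusters by type. The type II cluster of hg38 spans chr12:52168996-52952906 with 27 listed keratin genes, and the type I cluster chr17:40654665-41624842 with 28. In both, called members moved in opposite directions. On chromosome 12 KRT80 (chr12:52168996-52192014, minus strand) fell at one end, KRT81 (chr12:52285913-52291534, minus strand) fell further in, and KRT8 (chr12:52897187-52949954, minus strand) and KRT18 (chr12:52948871-52952906, plus strand) rose at the other end. On chromosome 17 KRT19 (chr17:41523617-41528308, minus strand) rose, and KRT17 (chr17:41619442-41624842, minus strand), the next tested gene, fell. Neither cluster changed as a block.

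Around the clusters, tested genes were called higher more often than lower. Within 5 Mb of the type II cluster 44 of 205 other tested genes rose (21.5%) and 18 fell (8.78%), against 17.1% and 17.7% over chromosome 12. The share that rose was thus close to the 19.8% of all tested genes, and fewer genes fell. The median log2 fold change there was 0.13 against 0.0090 for chromosome 12 and 0.030 over all tested genes. Within 5 Mb of the type I cluster 56 of 188 rose (29.8%) and 11 fell (5.85%), against 22.3% and 11.2% over chromosome 17, with a median of 0.29 against 0.16. The part of such a regional shift in the changes of the keratins was not tested.

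**Figure D4:**
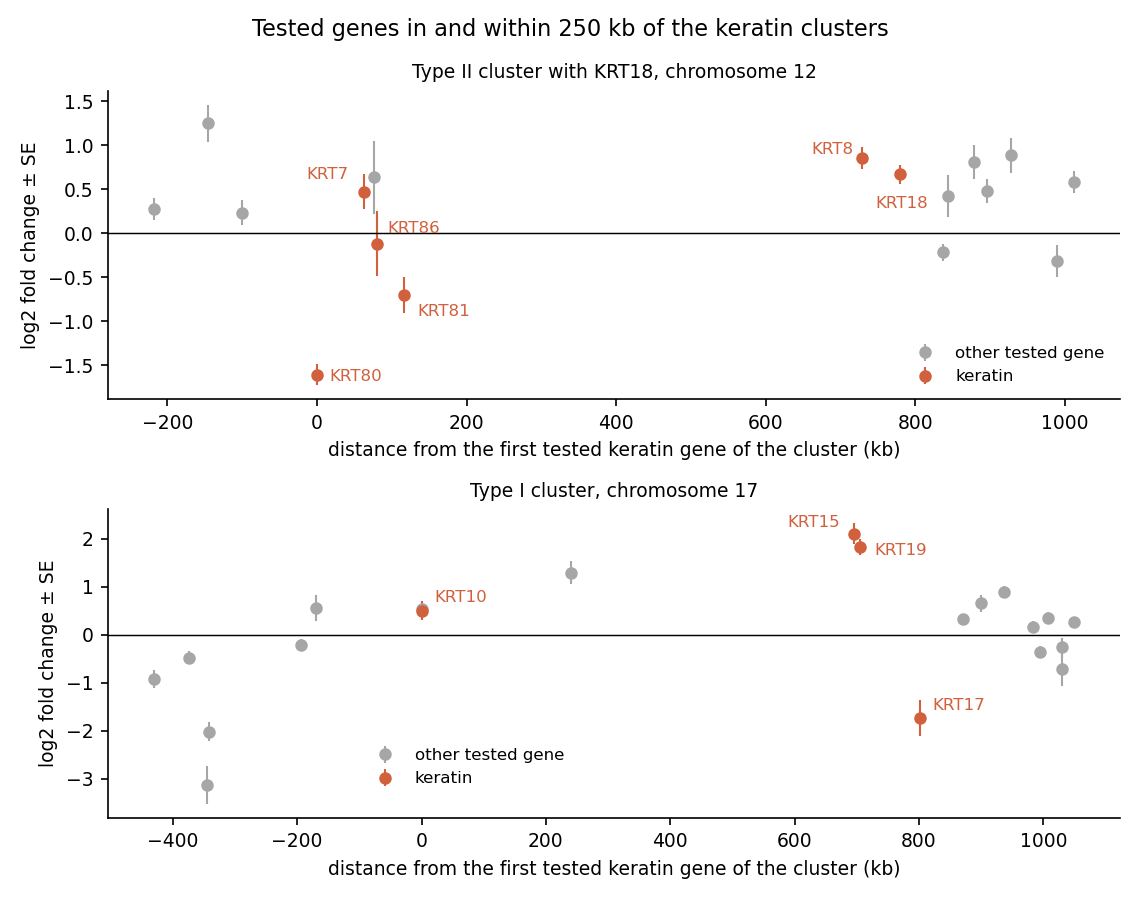
Log2 fold change ± SE of tested genes in and within 250 kb of the type II cluster (top) and the type I cluster (bottom), by distance in kb from the first tested keratin of the cluster, with keratins in orange and other genes in grey. KRT80 and KRT81 lie below 0 in the stretch where KRT7 lies above it, and KRT17 lies below 0 next to KRT15 and KRT19, which lie above it. KRT75 is left out because of its low counts.

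Among the 45 other keratin genes listed, 19 had a count in at least 1 library and 3 could be tested. KRT15, a type I keratin of basal and progenitor cells whose gene is next to KRT19, was at 2.24, 1.77 and 1.2 TPM in DKK1-SE+/+ and at 8.1, 9.39 and 8.77 TPM in DKK1-SE-/- libraries. The groups were far apart, and KRT15 rose by 2.10 on the log2 scale (SE 0.22, adjusted p = 5.4e-05, edgeR). KRT15 is a basal keratin by its known sites of expression, so the basal chains did not move in the same direction. KRT75, a type II keratin of the hair follicle, had expected counts of 26.0, 19 and 25 in DKK1-SE+/+ and 1, 2 and 2 in DKK1-SE-/- libraries. KRT75, like KRT17, met the filter through the DKK1-SE+/+ libraries alone. The counts give a 12.9-fold lower summed count per scaled library size, with an exact Clopper-Pearson 95% interval of 5.27 to 40.9 that covers counting error only, and an adjusted p of 0.000281 in edgeR. KRT10, the type I keratin of differentiating skin cells, was not called, with a log2 difference of 0.50 (SE 0.21, adjusted p = 0.0754, edgeR). Below the filter, KRT4 had counts of 1, 1 and 0 against 14, 9 and 3, and KRT32 of 2, 1 and 3 against 22, 14 and 6, whereas KRT6B had 2, 2 and 4 against 1, 0 and 0. These rows were picked here after their values were seen, and among the untested keratins the TPM ranges also lay apart upward for KRT16 and downward for KRT6A, at very few counts. The median over the 3 tested genes was 0.50, also with KRT75 placed at the bound of its interval.

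Vimentin, the intermediate filament of mesenchymal cells, was more abundant than any keratin in these cells. VIM was at 3746, 4210.3 and 4522 TPM in DKK1-SE+/+ and at 2819, 2534 and 2700.4 TPM in DKK1-SE-/- libraries. It fell by 0.47 on the log2 scale (SE 0.11, adjusted p = 0.00597, edgeR). The ratio of KRT8 to VIM was 0.231 ± 0.0165 in DKK1-SE+/+ and 0.583 ± 0.077 in DKK1-SE-/- cells (SD, n = 3), without overlap. KRT8 thus stayed below VIM in every library and came closer to it in DKK1-SE-/- cells. Of 15 other intermediate filament genes 9 were tested and 4 called, where 19.8% of all tested genes rose and 19.5% fell: NEFM rose, SYNM, VIM and LMNB1 fell (LMNB1 with an adjusted p up to 0.0743 over the alternatives), and the median was 0.065. NEFM, a neurofilament gene, had no count in DKK1-SE+/+ libraries, met the filter through the DKK1-SE-/- libraries alone and was at least 9.56-fold higher in DKK1-SE-/- libraries against a floor of 3 counts per library, and the median is the same with NEFM at that bound.

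The proteins that anchor keratin filaments to desmosomes, hemidesmosomes and the cell cortex were mixed. Among 18 tested of 19 listed genes 7 rose and 5 fell, beside 19.8% and 19.5% of all tested genes, with a median of -0.023. The desmosomal genes PKP2 (-2.02, SE 0.16) and DSC2 (-1.74, SE 0.21) fell, and ITGB4 (1.09, SE 0.15), the hemidesmosomal integrin chain, and PLEC (0.89, SE 0.16), which links keratins to hemidesmosomes, rose. PLEC had the highest mean TPM of the list over the 6 libraries, but not within DKK1-SE+/+ cells. Both kinds of junction also had genes going the other way, picked here after their values were seen: desmosomal JUP (0.89, SE 0.13) and PKP1 (2.23, SE 0.58) rose, and hemidesmosomal DST (-1.06, SE 0.22) and ITGA6 (-0.41, SE 0.13) fell. PKP1 met the filter through the DKK1-SE-/- libraries alone, as did DSC3. The PKP1 call was lost without replicate 1 of DKK1-SE-/- (adjusted p = 0.0638) and in limma on TPM (up to 0.21), and the ITGA6 call without replicate 2 (0.111) or 3 (0.056) of DKK1-SE+/+ or replicate 1 (0.0544) or 2 (0.0747) of DKK1-SE-/-. DSC3 had 3 counts in all over the DKK1-SE+/+ libraries and 128 over the DKK1-SE-/- libraries, a ratio of 46.4 with a 95% counting interval of 15.5 to 228. The list median was unchanged with DSC3 at the lower bound.

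Transcription factors of keratin-bearing epithelia did not move one way. Of 15 tested factors 4 rose and 3 fell, beside 19.8% and 19.5% of all tested genes, with a median of 0.30, and TP63, which drives basal keratins, was at 0.11 ± 0.0889 and 0.08 ± 0.0917 TPM, too low to test. MSX2 (1.74, SE 0.20) and TFAP2A (0.93, SE 0.12) rose, and so did KLF5 (1.21, SE 0.17) and LEF1 (1.64, SE 0.31). In limma on TPM the KLF5 and LEF1 calls were lost, with adjusted p up to 0.0748 and 0.0866. With pseudocounts of 1 and 0.1 the log2 fold change there was 1.55 and 1.82 for KLF5 and 0.62 and 0.89 for LEF1. The KLF5 TPM was 29.15, 4.35 and 5.08 in DKK1-SE-/- libraries, where its expected counts were 199, 216 and 206, so replicate 1 stood out in TPM only. HOXC13 (-0.71, SE 0.17) and TFAP2C (-0.63, SE 0.16) fell, and their calls were not run through the alternatives. SOX9, the most abundant, fell by 0.39 on the log2 scale, a call that was lost in 4 of 15 alternatives (adjusted p up to 0.105). Of 5 tested factors of epithelial-mesenchymal transition, ZEB1, a repressor of epithelial genes, fell by 1.27 (SE 0.16, adjusted p = 0.000204, edgeR). TWIST2 (2.77, SE 0.37) and SNAI1 (0.59, SE 0.16) of the same list rose, SNAI1 with an adjusted p up to 0.0862 over the alternatives and TWIST2 with the filter met through the DKK1-SE-/- libraries alone, and the median was 0.080. Of 16 basal and squamous genes other than keratins 7 had no count at all and 5 were tested. PERP, a desmosomal p63 target, fell by 1.58 (SE 0.10, adjusted p = 1.28e-06, edgeR), CDH3 rose by 2.16 (SE 0.35), and the median was -0.15.

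**Figure D5:**
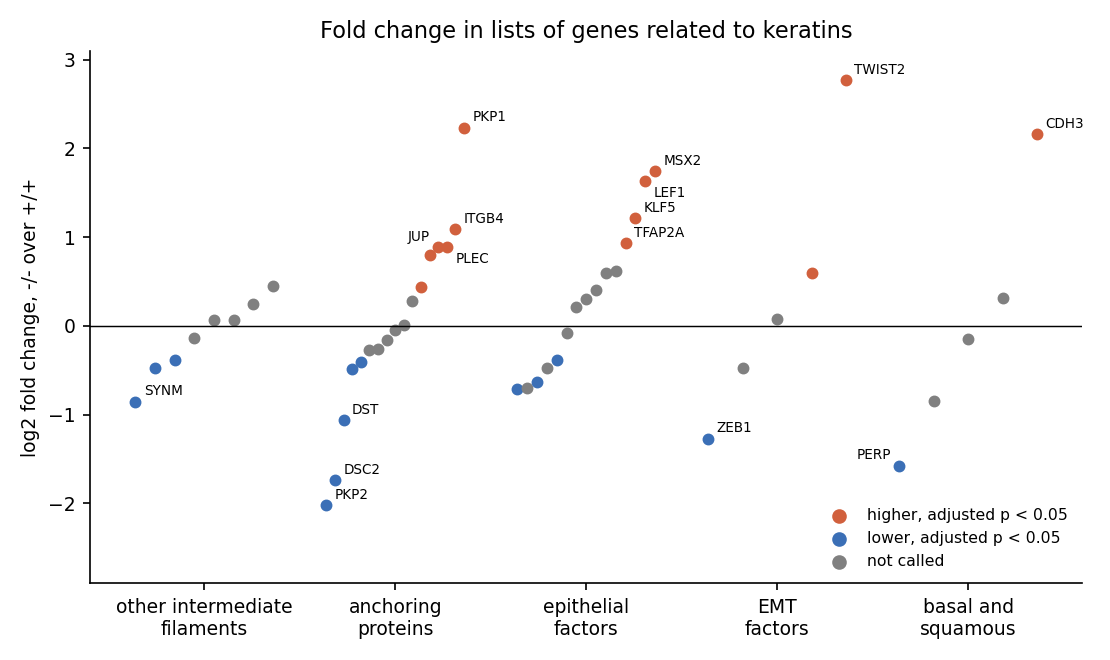
Log2 fold change of each tested gene in 5 lists of genes related to keratins, sorted within each list, with genes called higher in orange, lower in blue and not called in grey. Each list holds genes on both sides of 0. NEFM and DSC3 are left out because their DKK1-SE+/+ counts were 0 or about 1.

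By the pattern of log2(TPM + 1) over the 6 libraries, the genes most like KRT19 outside the keratin family were TPRG1L, ENSG00000290689, MEPCE, IFITM3 and FBXL16. They were taken from 13661 genes by Pearson's r, which was 0.998 to 0.999, and 562 genes had an r above 0.95. With 2 separate groups of 3 libraries, r mostly reflects the difference between the groups and is given as a description. All 5 rose, between 0.40 (ENSG00000290689) and 1.35 (IFITM3) on the log2 scale, less than KRT19.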

How the data were processed

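Gene-level expected counts and TPM of the 6 libraries were taken as deposited by the authors, who had Illumina stranded mRNA libraries sequenced and analysed on the Majorbio platform with build hg38 (per the labels and methods); aligner, counter and annotation version are not given in the sources used here. The authors' own fold changes and p-values in the table were not used. Of the nonzero expected counts 32.3% were not whole (tolerance 1e-9), and counts were rounded. Genes were filtered with filterByExpr (minimum count 10), scaled by TMM and tested with the quasi-likelihood F test of edgeR 4.0.16 in R 4.3.3, with Benjamini-Hochberg adjustment over 15179 genes, after tests on simulated counts. DESeq2 1.42.0, limma 3.58.1 on log2(TPM + 1) and log2(TPM + 0.1), other scalings, a GC-content offset in 40 bins and leaving out libraries served as alternatives. Positions and sequences are from GENCODE 44, which placed 99.9% of the genes by identifier. Named genes are the 10 members, DKK1, VIM, called keratins outside the 10, up to 4 called genes and the most abundant gene of each list, and 5 genes most like KRT19. KRT10, CDH1, CFTR, PTPRC, PECAM1, TP63, HOXC13, TFAP2C and COL1A2 are named outside this rule, after their values were seen. The members and lists were chosen with earlier results of these data known.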

Additional observations from a re-analysis of the deposited data

How the results depend on the processing

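The calls of KRT8, KRT17, KRT18, KRT19 and KRT80 and their directions held under every alternative fit. KRT17 met the filter of the main fit through the DKK1-SE+/+ libraries alone. Their log2 fold changes ranged from 0.58 to 0.97 (KRT8), -1.97 to -1.12 (KRT17), 0.40 to 0.75 (KRT18), 1.49 to 1.96 (KRT19) and -1.85 to -1.53 (KRT80). With an unadjusted p under 0.05 and a log2 fold change of at least 1.2 as the limit, 3 members were called in place of 6 and 1 in place of 3 upward, since KRT8, KRT18 and KRT81 changed by less. With 1.2 as a limit on the fold change itself, chosen after seeing the data, 7 members were called and 4 upward, KRT7 being added. KRT86 reversed without a library, from -0.57 to 0.075 over the omissions, with 0.043, 0.033 and 0.075 as the values above 0. Leaving out 1 library gave 5 called members without replicate 2 or 3 of DKK1-SE+/+, where 25.9% and 30.1% of tested genes were called, to 7 without replicate 3 of DKK1-SE-/-, where 48.4% were, in place of 39.3%. Without the filter on low counts 5 other keratins in place of 2 and 7 other intermediate filament genes in place of 4 were called, where 31045 genes were tested and 21.1% of them called in place of 39.3%. Omitting 1 library gave between 2 and 4 called other keratins, with 4 without replicate 3 of DKK1-SE-/-, where 48.4% of all tested genes were called as well. On CPM the simple share was 79.9% and 95.4%, that of KRT23 and KRT80 19.6% and 4.37%, and the basal and hair-type share of DKK1-SE-/- cells 0.22%. Over all keratin genes the simple share was 90.7% and 97.5%. With replicate numbers as a block, 6 members were again called and 4981 genes in all in place of 5972. Libraries of the same number did not deviate together (correlations of -0.219, -0.136 and -0.195), so the numbers do not pair them. On the TPM scale the median log2 fold change of all genes was -0.083 for a pseudocount of 1 and -0.11 for 0.1, in place of 0.030, and no member's direction depended on it. KRT5, KRT17, KRT23 and KRT86 are limited by depth, with at most 39.4 counts in a library. All DKK1-SE-/- libraries share a clone, and the cause of the differences between settings was not tested.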

Other observations

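Some rows related to the keratins by name or place are outside the family. KRTAP2-3, a keratin-associated protein gene of the hair shaft that lies inside the type I cluster, was at 4.44, 4.47 and 7.72 TPM in DKK1-SE+/+ and at 12.7, 12.1 and 11.2 TPM in DKK1-SE-/- libraries. All DKK1-SE-/- values were higher, with a log2 fold change of 1.29 (SE 0.24, adjusted p = 0.00203, edgeR). It was the only tested one of 94 keratin-associated protein rows, 11 of which had any count. KRT10-AS1, antisense to KRT10, rose by 0.53 (SE 0.15, adjusted p = 0.0186, edgeR), beside 0.50 for KRT10, which was not called. The pseudogene KRT8P12 on chromosome 3 rose by 0.68 (SE 0.18, adjusted p = 0.013, edgeR), and reads of KRT8 placed on it cannot be told apart from its own. These 3 rows were picked after their values were seen.

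JUP, the plakoglobin gene that joins desmosomes to keratins, lies just beyond the type I cluster and was also picked after its values were seen. It was at 52.0, 62.1 and 66.7 TPM in DKK1-SE+/+ and at 114, 87.3 and 94.5 TPM in DKK1-SE-/- libraries, with a log2 fold change of 0.89 (SE 0.13, adjusted p = 0.000518, edgeR). Its DKK1-SE-/- values were all above those of DKK1-SE+/+ cells, while KRT17, between it and KRT19, fell. Among markers of other cell types, the collagen gene COL1A1 fell by 3.06 (SE 0.12) and COL3A1 rose by 1.42 (SE 0.14), and COL1A2 had no count in any library. The endothelial marker KDR fell by 2.49 (SE 0.19), and CD68, a lysosomal gene of macrophages and many cell lines, rose by 0.76 (SE 0.11), with the other markers of these lists near 0.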
